A study of Mus musculus with 8 samples.

Results

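The haemoglobin-rich barcodes of aged mouse ascending thoracic aorta numbered 230 of the 11301 cell barcodes past the depth and mitochondrial filters, or 2.04% (exact 95% interval 1.78 to 2.31), and of 26916 barcodes in all. A barcode stands for 1 droplet of a single-cell run. The members were chosen from the measured RNA: at least 500 genes, at least 1000 gene UMIs (unique molecular identifiers, which count RNA molecules), under 15% mitochondrial UMIs, at least 5% of gene UMIs from Hba-a1, Hba-a2, Hbb-bs and Hbb-bt together, and at least 1 UMI of Alas2. Barcodes with 0.2% or more of Myh11 and Tagln, 0.3% or more of Dcn, or more than 1 UMI of Cdh5, Kdr and Cldn5 were left out, which are genes of smooth muscle, fibroblasts and endothelium. Of the 230 members, 171 also held T cell RNA, counted as at least 2 UMIs of Cd3d, Cd3e, Cd3g and Rag1, and 59 did not. All values below describe barcodes chosen for their globin RNA, so levels of members against other barcodes carry no test.

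The cells came from 3 wildtype mice aged 81, 84 and 88 weeks, all called old in the labels, whose ascending aortas were digested with collagenase and elastase for 60 min and cleared of dead cells. Each animal carries its own hashtag antibody, and the labels give no treatment, so genotype and preparation are shared by all. The labelled protocol gives no step that sorts leukocytes or lyses red cells. The 8 deposited samples are 4 gene expression and 4 hashtag libraries of the 3 animals pooled, the deposited matrix does not keep them apart, and all 26916 barcodes were distinct under 1 library suffix. Hashtags set the animal, so each age is 1 animal, and the 3 hashtag sets give the spread. The matrix holds 142108011 gene UMIs, with a median of 2975 per barcode (900 to 104654) and a median mitochondrial share of 15.9%.

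Red blood cells arise from erythroblasts, which switch on globin and haem synthesis genes under the factors Gata1 and Klf1, stop dividing, expel their nucleus and become reticulocytes. Reticulocytes still hold a simple, globin-dominated messenger RNA pool and clear their mitochondria and ribosomes before they become erythrocytes, which have lost nearly all RNA. In an artery they belong to the blood, not to the wall.

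Of the 4 fixed erythroid markers, Hbb-bs, Hba-a1 and Alas2, the erythroid enzyme of the first step of haem synthesis, were used by the rule, so that their detection in 100% of members is set by the choice. Bpgm, the enzyme that makes 2,3-bisphosphoglycerate, was not used and was found in 84.8%. T cell RNA was also present in 171 of the 230 members, described further on. A median member held 4525 gene UMIs, 960.5 genes, 51.4% globin UMIs (range 6.27 to 78.4) and 9.75% mitochondrial UMIs. Members without T cell RNA held a median of 630 genes and 62.5% globin, and members with it 1138 genes and 46.4% globin, at medians of 4561 and 4459 UMIs. Across the 230 members the globin share ran against the number of genes (Spearman rho -0.84, a description over barcodes of 1 pool in which both measures share the UMI total). The number of globin UMIs was nearly unrelated to the number of non-globin UMIs (rho -0.13).

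Few barcodes stood near the globin threshold, and many stood near the gene threshold. The lowest globin shares inside were 6.27% and 7.01%, and the highest outside were 4.75% and 4.63%. The members with the fewest genes had 502, and the barcode just outside had 498. A further 25 barcodes met all but the Alas2 criterion, with a median of 12.01% globin, and 103 were left out at 15% or more mitochondrial UMIs.

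**Figure D1:**
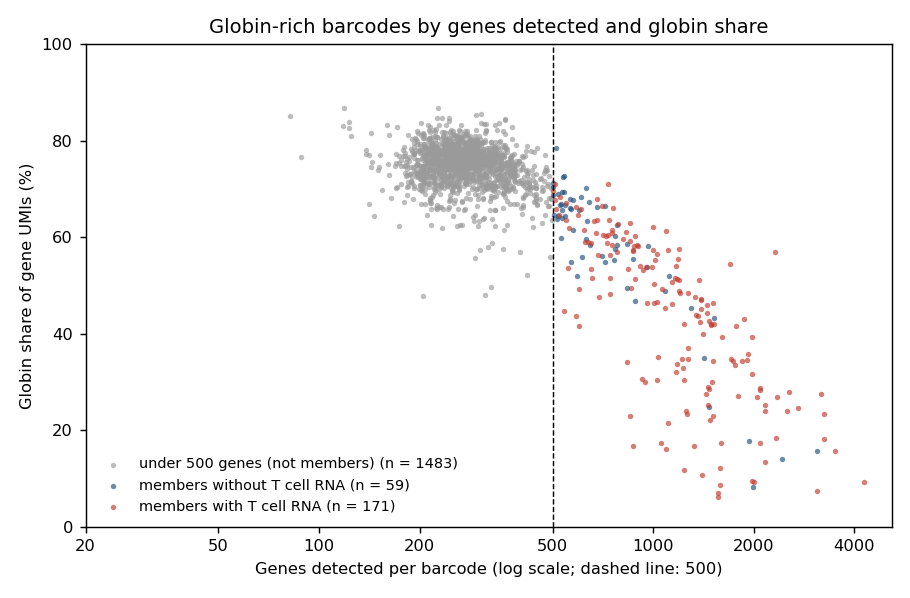
Each point is a barcode that met every criterion apart from the number of genes, with genes detected on the log x axis and the globin share of gene UMIs in percent on the y axis. Barcodes under 500 genes (grey) form a dense cloud near 75% globin, and the members (blue without and red with T cell RNA) run from there to shares under 10% as the number of genes grows.

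The minimum of 500 genes cut the globin-rich barcodes into unequal pieces. With 200 to 499 genes, 1380 further barcodes met every other criterion, so a minimum of 200 genes gave 1610. These low-gene barcodes held a median of 275 genes, 3404.5 gene UMIs and 75.3% globin. They carried 54.1% of all globin UMIs in the matrix, the 230 members 7.73% and the other barcodes past the filters 9.47%. T cell RNA was found in 3.37% (exact interval 2.29 to 4.78) of the 889 barcodes with 200 to 299 genes and in 2.27% (0.276 to 7.97) of the 88 with 400 to 499. It was found in 36.6% (22.1 to 53.1) of the 41 members with 500 to 599 genes, in 63.8% (48.5 to 77.3) of the 47 with 600 to 799 and in 90.9% (70.8 to 98.9) of the 22 with at least 2000.

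Malat1, a long noncoding RNA kept in the nucleus, differed across the same border. Its level is given in CPM, here UMIs per 1000000 non-globin UMIs, the scale of all levels unless stated, since the globins take up to 78.4% of a member. Malat1 stood at 3948 CPM in the low-gene barcodes, at 28924 in members without and 30427 in members with T cell RNA, and at 31481 in other barcodes. Within the ranges of gene number it was 6773 CPM at 400 to 499 genes and 23147 at 500 to 599. The low-gene barcodes thus lay far under all the rest, and the members without T cell RNA lay with the barcodes of other cells.

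**Figure D2:**
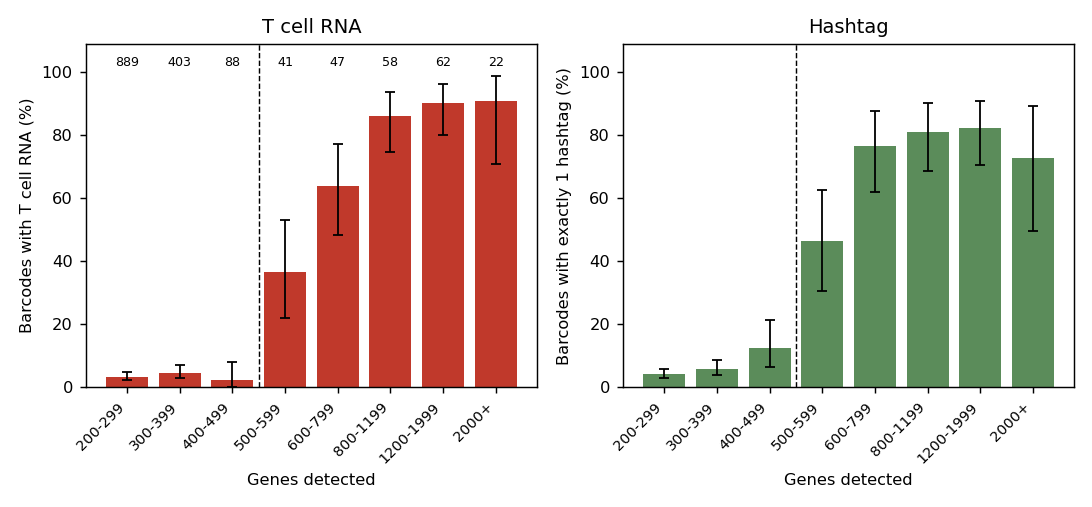
The x axis gives ranges of genes detected among barcodes that met all other criteria, with the number of barcodes above each bar and the 500-gene minimum as a dashed line. The y axes give the percent of barcodes with T cell RNA (left) and with exactly 1 hashtag (right), with exact 95% binomial intervals as error bars; both shares are low to the left of the line and high to the right of it.

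The globin RNA was adult in type. Haemoglobin is built of 2 alpha-type and 2 beta-type chains, and the mouse adult genes are Hba-a1 and Hba-a2 on chromosome 11 and Hbb-bs and Hbb-bt on chromosome 7. Hbb-bs made up 64.5%, 62.8% and 63.3% of globin UMIs in the sets of 81, 84 and 88 weeks, a mean of 63.5% ± 0.896 (SD, n = 3). Hba-a1 made up 14.2% ± 0.213, Hbb-bt 11.6% ± 0.499 and Hba-a2 10.7% ± 0.211. The beta to alpha ratio was 3.02 ± 0.0667, against 3.13 ± 0.0987 in other barcodes, where globins were 0.608% ± 0.0442 of UMIs. Hba-a1 and Hba-a2, and Hbb-bs and Hbb-bt, are near-identical copies whose reads the authors' counting could split, so the values of single copies are uncertain. The embryonic genes Hbb-bh1, Hbb-bh2, Hbb-y and Hba-x had 0 UMIs in the 635490 non-globin UMIs of the members, where 3 counts would be 4.72 CPM. The minor alpha-type gene Hbq1a had 50.4 CPM.

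The 250 bases before the start of the globin and Alas2 genes are shown because these RNAs chose the members and varied together in them (Spearman rho 0.93 of alpha with beta globin UMIs and 0.62 of globin with Alas2 UMIs over 230 members, a description of barcodes that share a library). They are from RefSeq, mouse build GRCm38.p6 (mm10), printed 5′ to 3′ on the gene's strand: Hbb-bs at chr7:103827929-103828178, minus strand, Hbb-bt at chr7:103813924-103814173, minus strand, Hba-a1 at chr11:32283422-32283671, plus strand, and Alas2 at chrX:150547167-150547416, plus strand. Capitals mark the motifs AGATAA and TGATAA (forms of the GATA factor motif), CACCC (bound by Klf factors), CCAAT and TATAAA, read on both strands, so that a motif on the other strand appears as its reverse complement, and motifs may overlap.
Hbb-bs: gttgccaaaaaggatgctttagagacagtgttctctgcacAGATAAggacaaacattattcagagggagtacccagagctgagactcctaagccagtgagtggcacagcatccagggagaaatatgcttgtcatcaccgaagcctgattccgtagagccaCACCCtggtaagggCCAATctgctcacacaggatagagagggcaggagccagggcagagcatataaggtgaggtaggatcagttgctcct
Hbb-bt: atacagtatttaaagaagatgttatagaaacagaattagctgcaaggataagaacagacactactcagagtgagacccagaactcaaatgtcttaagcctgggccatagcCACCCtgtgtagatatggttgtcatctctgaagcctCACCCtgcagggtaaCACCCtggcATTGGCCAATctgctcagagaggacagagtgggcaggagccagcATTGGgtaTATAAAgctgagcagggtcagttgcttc
Hba-a1: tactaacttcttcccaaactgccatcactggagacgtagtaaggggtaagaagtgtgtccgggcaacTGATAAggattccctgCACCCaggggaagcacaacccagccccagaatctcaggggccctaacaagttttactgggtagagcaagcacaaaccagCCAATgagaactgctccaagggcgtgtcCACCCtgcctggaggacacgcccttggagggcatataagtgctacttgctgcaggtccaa
Alas2: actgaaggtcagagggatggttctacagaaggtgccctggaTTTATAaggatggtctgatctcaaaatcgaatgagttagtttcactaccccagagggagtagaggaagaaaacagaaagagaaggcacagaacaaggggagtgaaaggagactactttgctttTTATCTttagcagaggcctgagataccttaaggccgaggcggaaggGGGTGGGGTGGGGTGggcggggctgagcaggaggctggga
Each of the 4 windows held 3 of the 5 motifs. Hbb-bs had AGATAA 210 bases, CACCC 90 bases and CCAAT 76 bases before the start, and Hbb-bt had CACCC at 140, 104 and 89 bases, CCAAT at 80, 75 and 36 bases and TATAAA at 28 bases. Hba-a1 had TGATAA at 183, CCAAT at 88 and CACCC at 167 and 60 bases, and the 247 bases it could be aligned over were identical in Hba-a2. Alas2 had, all on the other strand, TATAAA at 209, AGATAA at 86 and CACCC at 40, 35 and 30 bases. The window of Bpgm, not printed here, held 1 of the 5 motifs, CCAAT. Bpgm did not choose the members, and its UMIs varied with globin UMIs at rho 0.70 over the 230 members. The 3 motifs per window were thus not common to all RNAs that varied with globin. Of all 32851 promoter windows of 250 bases, 9.99% held AGATAA, 7.94% TGATAA, 52.0% CACCC, 33.8% CCAAT and 12.4% TATAAA. These matches describe letters, not binding.

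Besides the globins, the erythroid list with the most genes high in members was that of late red cell maturation, also the longest list. Among these genes were Ube2l6, Tent5c and Mkrn1. The lists were written with earlier results of these data known, so counts by list are no test. A gene passed the fold rule when its level was at least 4-fold above that of other barcodes, after adding 10 CPM to each, in each of the 3 hashtag sets, with at least 50 CPM in members. The rule was passed by 35 genes, 0.164% of the 21317 genes measured, and 23 of them belonged to the 128 genes of the erythroid lists. This contrast is the one that chose the members, so the count is a description. A total of 161 genes (0.755%) were lower by the same fold. The median log2 difference of all genes was -0.08, and -0.20 with all gene UMIs in the denominator. Without the set of 84 weeks 94 genes passed, 6 of them of the T cell list, and on the scale of all gene UMIs 20 passed. With members holding T cell RNA left out 41 passed, 29 of the 35 among them. The set of 81 weeks held 8 members and 17260 non-globin UMIs, so that 1 UMI there is worth 57.9 CPM.

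Of the 9 haem synthesis genes 2 passed, Alas2 and Fech, and 0 were lower, with a list median log2 of -0.32 beside -0.08 for all genes. Alas2 stood at 4519, 2699 and 3171 CPM in the members of the sets of 81, 84 and 88 weeks, and at 22.0, 20.8 and 19.1 in other barcodes, a log2 difference of 6.79 ± 0.34 (SD, n = 3). Fech, ferrochelatase, which sets iron into haem, stood at 579, 510 and 509 against 26.3, 22.1 and 24.3 (3.99 ± 0.06). Both genes passed the fold rule, so members above other barcodes in each set are part of that choice. Urod, of a middle step, stood at 61.4 CPM over all members against 27.7, and the 6 other haem synthesis genes stood at 6.29 to 18.9 against 4.50 to 20.1.

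Iron and haem transport had 2 of 19 genes past the rule (list median log2 0.12). Slc25a37, mitoferrin, which brings iron into mitochondria, stood at 985, 726 and 789 CPM against 26.0, 49.8 and 36.8. Slc25a39, a mitochondrial carrier, stood at 695, 435 and 433 against 43.9, 34.1 and 43.2. The ferritin light chain gene Ftl1 was at 3476, 3386 and 3527 against 963, 573 and 654, a log2 difference of 2.27 ± 0.37 that stayed under the fold in the set of 81 weeks. The ferritin heavy chain gene Fth1 stood at 3302, 2762 and 2789 against 6103, 4826 and 5545, under other barcodes in each set and within the fold.

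Of 24 genes of the red cell membrane and its skeleton 4 passed (list median log2 0.16) and 1, the water channel gene Aqp1, was lower. Epb41, protein 4.1, stood at 1159, 1109 and 879 CPM against 65.7, 106 and 83.4. Slc4a1, the anion exchanger band 3, was at 57.9, 125 and 166 CPM, and Tspo2 at 174, 62.5 and 38.2, while other barcodes held at most 1.45 CPM of either. The value of Slc4a1 in the set of 81 weeks is 1 UMI. Aqp1, named for its low values, stood at 25.2 CPM over all members against 188.

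The list of organelle clearance, ubiquitin and late maturation had the most, with 10 of 33 past the rule and a median log2 of 1.05. The T cell lineage list had a higher median log2, 2.08, with 0 of 14 genes past the rule. Mkrn1, a ubiquitin ligase, stood at 1854, 2116 and 2814 CPM against 60.1, 48.9 and 49.1 (log2 difference 5.16 ± 0.42). Bnip3l, the receptor for the removal of mitochondria in reticulocytes, stood at 1796, 1190 and 1235 against 138, 141 and 140. Tent5c, a poly(A) polymerase, stood at 2144, 1190 and 1261 against 33.6, 20.9 and 20.6. Ube2l6, Isg20, Ccndbp1, Gabarapl2, Rnf10 and Ube2o, the last a ubiquitin enzyme that remodels the reticulocyte proteome, also passed, at 343 to 966 CPM over all members.

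Among 16 genes of red cell metabolism and antioxidant defence 1 passed, Bpgm (list median log2 -0.0043). Bpgm stood at 3766, 2124 and 2139 CPM against 31.8, 28.6 and 29.7 (6.01 ± 0.42). Car2, carbonic anhydrase 2, stood at 57.9, 562 and 76.4 CPM against 7.08, 4.55 and 3.93, with 1 UMI in the set of 81 weeks. Gpx1 and Prdx2, which reduce peroxides, stood at 2079 and 653 CPM over all members against 580 and 195. The glycolysis genes Aldoa and Ldha stood at 104 and 149 against 274 and 134.

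**Figure D3:**
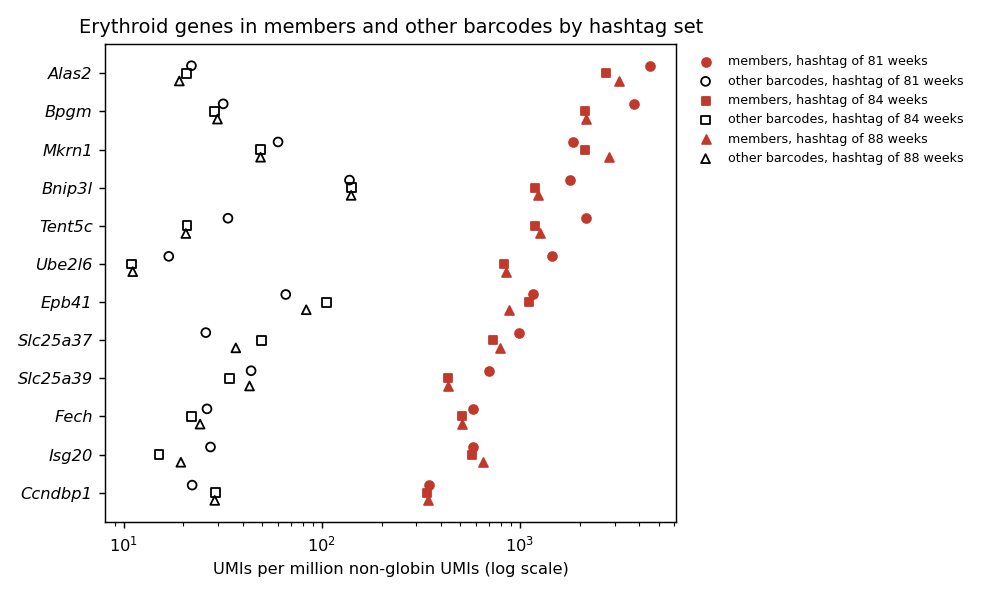
The x axis is UMIs per 1000000 non-globin UMIs (CPM) on a log scale, and each row is a gene. Filled red symbols are the summed members and open symbols the summed other barcodes of each of the 3 hashtag sets. All genes drawn passed the fold rule. The values of members lie to the right of those of other barcodes by that choice.

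Outside the lists the same rule named 12 genes. Among the 20 with the highest smallest difference were Fam220a (209 CPM over all members, 4.64 in other barcodes), Apol11b (92.8 and 0.609), Isca1, a factor of iron-sulphur cluster assembly (301 and 20.6), Rsad2, viperin (334 and 11.95), Rec114 (91.3 and 0.951) and Gda, guanine deaminase (338 and 21.3). The 10 highest genes in members were the 4 globins, Gm42418, which overlaps ribosomal RNA, Malat1 and the mitochondrial mt-Atp6, mt-Co3, mt-Co2 and mt-Cytb. Transcripts are counted here at their 3′ end, so levels of different genes do not scale with their length.

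Several genes of early erythroid stages had no UMI in the members. Gata1, Klf1, Tal1, Gfi1b and Cited4 had 0 UMIs in the members, which allows up to 4.72 CPM. None of 17 erythroid transcription factor genes and none of 12 progenitor stage genes passed. Gata2, Epor, Car1, Mpo and Hoxa9 also had 0 UMIs, and Kit had 3.15 CPM. Myb stood at 395 CPM in members, at 154 in those without and 453 in those with T cell RNA. E2f2 stood at 149 CPM in members, 48.8 in those without and 174 in those with T cell RNA. Summed over the list, transcription factor RNA was at 519 CPM in members against 343 in other barcodes. By hashtag set members held 463.5, 536 and 420 CPM against 339, 424 and 428. Gated T cell barcodes held 515 and endothelial ones 506, while smooth muscle held 301 and fibroblast barcodes 277. The sum in members was thus near that of 2 other classes. Progenitor stage RNA, summed, was at 900.1 CPM in members against 3955 in other barcodes. Most of the progenitor stage sum in other barcodes was Vim. That sum was 5042 CPM in smooth muscle and 682 in T cell barcodes, gated as given below. The difference can therefore not be read as one in erythroid progenitor RNA. Foxo3, which acts late in red cell maturation, was at 53.5 CPM against 38.9 in other barcodes. Counts of 0 at this depth do not show that the transcripts were absent.

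**Figure D4:**
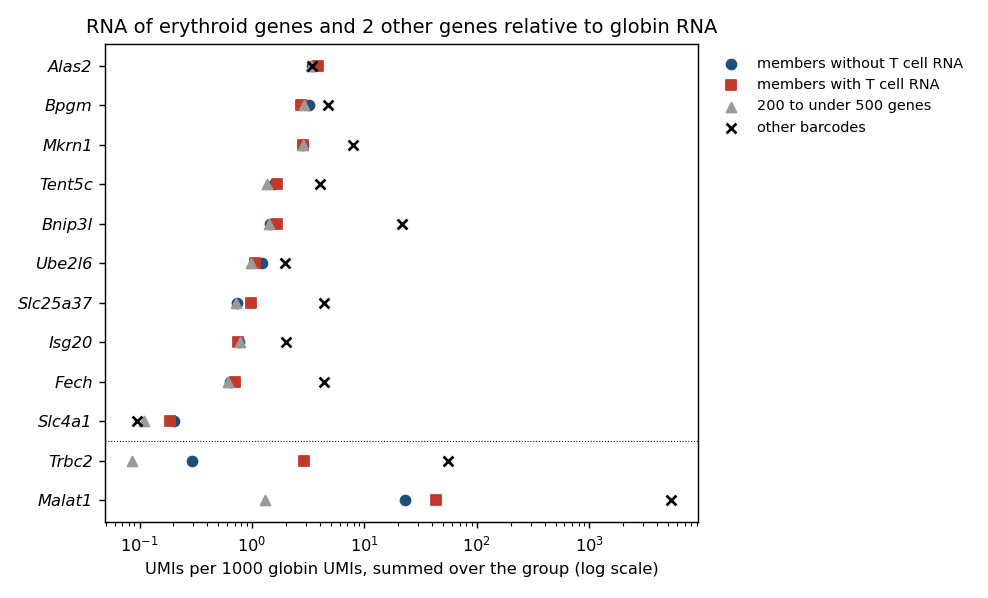
The x axis is UMIs per 1000 globin UMIs, summed over each group, on a log scale, and each row is a gene. For the 10 erythroid genes above the dotted line the members without T cell RNA, the members with it and the low-gene barcodes (200 to under 500 genes) lie close together; for Trbc2 and Malat1 under the line they lie far apart.

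Set against globin RNA, most RNAs past the fold rule lay within 2-fold among the 3 kinds of globin-rich barcode. Alas2 had 3.42 UMIs per 1000 globin UMIs in members without T cell RNA, 3.87 in members with it and 3.31 in the low-gene barcodes. Bpgm had 3.22, 2.70 and 2.88, Mkrn1 2.82, 2.84 and 2.82, and Fech 0.637, 0.708 and 0.614. Of the 31 non-globin genes past the fold rule, 30 lay within 2-fold between members with and without T cell RNA (median ratio 0.978), Apol11b being the exception at 2.39, and all 31 did so between low-gene barcodes and members without T cell RNA (median ratio 0.893). The range of the second ratio was 0.505 to 1.52. The 31 genes were chosen for their high levels in these members, and no such share was computed over all genes. These counts therefore describe the 31 genes alone and are no test. Malat1 in contrast had 23.1, 43.6 and 1.30 UMIs per 1000 globin UMIs, and Trbc2, a T cell receptor constant gene, 0.293, 2.89 and 0.0863.

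In the other barcodes past the filters, 8 of the 31 genes lay within 2-fold of the low-gene barcodes on this scale. Among these were Alas2, with 3.43 UMIs per 1000 globin UMIs, Bpgm with 4.75, Slc4a1 with 0.0942, Tspo2 with 0.126, and Apol11b and Rec114. Globin RNA was 0.592% of the UMIs of other barcodes. The 31 genes were chosen for higher levels in members than in these other barcodes. No such share was computed over all genes, so the count of 8 describes the 31 genes alone. These other barcodes include globin-rich ones left out by later criteria, with a median globin share of 0.0686% and a maximum of 66.4%. The part of these globin-rich barcodes in the values was not tested. In smooth muscle and T cell barcodes under 5% globin, gated as given below, Alas2 had 3.57 and 3.96 and Bpgm 12.5 and 15.7 UMIs per 1000 globin UMIs. The other 23 genes stood higher against globin in other barcodes, up to 39.4-fold.

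T cell RNA, which the rule used neither to admit members nor to leave barcodes out, was common among them. It was found in 171 of 230 members, 74.3% (exact interval 68.2 to 79.9), at a median of 4525 UMIs. The limits on smooth muscle, fibroblast and endothelial RNA removed 163, 46 and 58 globin-rich barcodes in turn. The minimum of 500 genes left out the low-gene barcodes, of which 3.70% held T cell RNA. The share in members thus depends on which barcodes the rule left out. For comparison it was found in 11.1% of 5181 smooth muscle barcodes (gated as at least 1% Myh11 and Tagln, and without those holding T cell RNA 4606 in the other comparisons) at a median of 11494 UMIs, in 16.2% of 1207 endothelial and in 11.6% of 883 fibroblast barcodes. When each barcode was thinned to 1000 UMIs, the expected share was 35.7% in members, 1.11% in smooth muscle, 5.29% in endothelial and 1.95% in fibroblast barcodes, 0.501% in the low-gene barcodes and 76.8% in gated T cell barcodes. The 1000 UMIs were drawn from all gene UMIs, globins included. Drawn from non-globin UMIs, the expected share was 55.5% in members and 76.8% in gated T cell barcodes.

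In the 171 members with it, T cell RNA stood at levels near those of T cells. Gated T cell barcodes had at least 3 UMIs of Cd3d, Cd3e and Cd3g, under 5% globin and little RNA of wall cells. Of the 14 T cell lineage genes listed, 10 were not used to split the members, and in members with T cell RNA they stood at 75.2% to 127% (median 110%) of the level in gated T cell barcodes. Trbc1 was at 1924 CPM against 2009, Cd8b1, a coreceptor chain, at 1138 against 1051, Cd4 at 394 against 331, and Satb1, a chromatin organiser of thymocytes, at 2102 against 1925. In members without T cell RNA the same 10 genes stood at 0% to 46.9% (median 21.0%), with Satb1 at 902 CPM. Of those 59 barcodes, 26 still held at least 5 UMIs of the 14 genes, so the split does not remove all T cell RNA. Rag1, used in the split, stood at 1647 CPM against 1255 in gated T cell barcodes. The source of the T cell RNA was not tested, and Scrublet, a doublet caller, marked 6 of the 171 (3.51%) and 1 of the 59.

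The share of members and that of T cell barcodes were both lowest in the animal of 81 weeks and highest in that of 84 weeks. Of members with exactly 1 hashtag, 8 belonged to the animal of 81 weeks, 131 to that of 84 weeks and 30 to that of 88 weeks. These were 1.34% (0.580 to 2.62), 4.87% (4.08 to 5.75) and 2.72% (1.84 to 3.86) of the barcodes of each animal past the filters, a mean of 2.97% ± 1.78 (SD, n = 3). Gated T cell barcodes were 4.52%, 42.6% and 28.4% in the same order. Members without T cell RNA were 0.838%, 0.929% and 0.362%, a mean of 0.710% ± 0.304, and were highest in the set of 84 weeks and lowest in that of 88 weeks. The part of T cell RNA in the differences between animals was not tested. T cell RNA was found in 3 of 8, 106 of 131 and 26 of 30 members of the 3 sets, in 22 of 43 members with no hashtag and in 14 of 18 with more than 1. With a minimum of 200 genes, which lets in the low-gene barcodes, the shares averaged 5.25% ± 0.398. With 1 animal per age, age and animal cannot be told apart, and no age effect can be read from these shares.

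Hashtag antibodies were not used to choose the members. Mouse hashtags of this kind bind surface proteins of nucleated cells, among them MHC class I and CD45. Exactly 1 hashtag was called on 73.5% (67.3 to 79.1) of members, on 57.6% (44.1 to 70.4) of those without and 78.9% (72.1 to 84.8) of those with T cell RNA. It was called on 84.2% (82.4 to 85.9) of gated T cell, 77.5% of endothelial, 15.6% of fibroblast and 10.8% of smooth muscle barcodes, and on 5.36% (4.23 to 6.69) of the low-gene barcodes, 94.3% of which had no hashtag. Among members with 1 hashtag the hashtag count had a median of 1.54 times its cutoff, against 3 times in endothelial and 1.70 times in gated T cell barcodes. B2m, the shared chain of MHC class I, stood at 788 CPM in members without and 291 in members with T cell RNA, at 245 in low-gene barcodes and at 2067 in endothelial ones. None of the 6 MHC class I genes passed the fold rule in either direction.

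Mki67 RNA was compared across 3 ranges of globin share. In the range of 5 to 20% globin stood 24 members, 20 of them with T cell RNA, in that of 20 to 50% 86, 79 with it, in that of 50 to 80% 120, 72 with it, and above 80% none. Mki67, which marks dividing cells, stood at 1078, 985 and 67.0 CPM in the 3 ranges, while Satb1 stood at 1251, 2019 and 2072. Among members with T cell RNA alone Mki67 was at 1350, 1058 and 59.9, so the highest range lay far under the other 2 within them. Among members without T cell RNA it was at 0, 0 and 79.6 CPM, over 4, 7 and 48 barcodes. The highest range was the only one with any Mki67 UMI there. The 4 and 7 barcodes held only 27892 and 19822 non-globin UMIs, so no order of the 3 ranges can be read among them. Alas2 stood at 788, 2345 and 5379 CPM, an order that the ranges themselves bring with them. The median number of genes was 1955, 1391.5 and 702.5 and that of non-globin UMIs 4419, 3005.5 and 1636.5, and their part in the Mki67 values was not tested.

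Mki67 was also counted by barcode. At least 1 UMI of Mki67 was found in 5 of 59 (8.47%, exact interval 2.81 to 18.7), in 24.6% of members with T cell RNA and in 48.1% of gated T cell barcodes. Thinned to 1000 UMIs, the expected shares were 2.25%, 15.5% and 36.9%, against 2.43% in endothelial and 0.422% in smooth muscle barcodes. At least 1 UMI of any of 25 cell cycle genes was expected in 44.8% of members without T cell RNA. It was expected in 43.0% of endothelial, 21.4% of smooth muscle and 86.3% of gated T cell barcodes. These draws were from all gene UMIs, globins included. Drawn from non-globin UMIs, the 25 genes gave 71.2%, 43.1%, 21.4% and 86.3% in the same order. Mki67 then gave 5.17% in members without and 18.8% in members with T cell RNA. It gave 36.9% in gated T cell, 2.44% in endothelial and 0.422% in smooth muscle barcodes. Ube2c, a ubiquitin enzyme of mitosis that was singled out after its values were seen, was at 447 CPM in members without T cell RNA, 408 in those with it and 637 in the low-gene barcodes, while Mki67 in the same groups was at 48.8, 861 and 56.7. Phase calls were not made.

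A group of members differed in the kind of globin RNA. The ratio of Hbb-bs to Hbb-bt UMIs in a barcode had a median of 5.52 and ranged from 2.16 to 221. At a limit of 12, set after the values were seen, 41 members (17.8%, 13.1 to 23.4) lay at or above it with a median ratio of 32.1, and 189 under it with a median of 4.97. Of the 41, 37 held T cell RNA, 26 had the hashtag of 84 weeks and 8 that of 88 weeks. They held fewer globin UMIs, with a median of 1006 against 2455. Among the low-gene barcodes 72 of 1380 (5.22%, 4.10 to 6.53) had such a ratio.

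Several other erythroid RNAs stood lower in the 41, given here per 1000 globin UMIs. Bpgm had 0.597 in the 41 members and 3.05 in the 189, Gpx1 0.398 and 2.77, and Mkrn1 0.845 and 3.00. Car2 had 0 UMIs in the 41 members against 323 in the 189, so it was at least 9.20-fold higher in the latter, taking 3 counts over the group as the floor. Alas2, which the rule required, did not follow, at 4.05 and 3.71. Nor did Ube2l6, at 1.14 and 1.11, Epb41, at 1.59 and 1.41, or Prdx2, at 0.845 and 0.809. Ftl1 stood higher in the 41, at 6.94 and 4.02. Of the 41, 37 held T cell RNA, and gated T cell barcodes held 98.2 UMIs of Epb41 per 1000 globin UMIs. The part of T cell RNA in these values was not tested. For Bpgm, Gpx1, Car2 and Alas2 the 72 low-gene barcodes with a high ratio ran the same way. Bpgm was at 0.824 against 2.95, Gpx1 at 0.0859 against 2.91, Car2 at 2 UMIs and Alas2 at 3.17 against 3.32. Prdx2 was lower there, at 0.120 against 0.553. Between 500 and 1500 globin UMIs, where 30 and 10 members could be set side by side, Bpgm was at 0.390 and 2.74 and Gpx1 at 0.390 and 2.56. These are values of groups made from the same counts and carry no test, and the ratio rests on reads of near-identical copies.

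**Figure D5:**
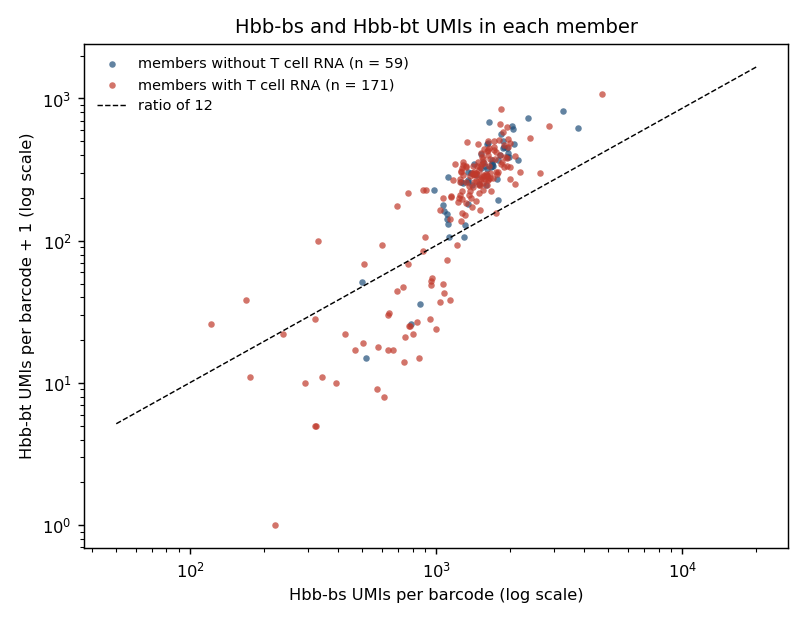
Each point is 1 of the 230 members, with its Hbb-bs UMIs on the log x axis and its Hbb-bt UMIs plus 1 on the log y axis; the dashed line marks a ratio of 12. Most members form a dense group above the line, and a looser group of 41, mostly with T cell RNA (red), lies under it.

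Most of the 59 members without T cell RNA held some RNA of other cell types. At least 5 UMIs of the smooth muscle list were found in 46 of them (at most 37 UMIs). The same was found in 71.9% of members with T cell RNA, 68.0% of low-gene and 66.3% of gated T cell barcodes. At least 5 UMIs of the fibroblast list were found in 9 of the 59 (at most 55 UMIs) and of the endothelial list in 7 (at most 32). The macrophage list reached 5 UMIs in 3 (at most 64) and the whole T cell lineage list in 26 (at most 28). In the low-gene barcodes the shares with 5 UMIs were 0.725% for the fibroblast and 2.39% for the endothelial list. The summed macrophage list was at 1089 CPM in the 59 members against 157 in other barcodes, and the megakaryocyte list at 171 against 69.0. Neutrophil genes had at most 1 UMI in any of the 59, and platelet and megakaryocyte genes reached 5 UMIs in 2 of them. Of the 737 immunoglobulin UMIs (Ighm, Igkc, Jchain) in the 59, 721 lay in 1 barcode with 24.7% globin and 1465 genes. Of the 470 UMIs of C1qa, C1qb, C1qc, Lyz2 and Cd74, genes of macrophages and of antigen presentation, 299 lay in 1 barcode with 8.31% globin. The B cell list of the members therefore rests on a single barcode. Of 12 genes of dissociation stress 4 were lower by the fold rule, among them Jun, at 33.0 CPM in members against 306 in other barcodes. Summed, the 12 genes stood at 675 CPM in members, 1875 in other barcodes and 413 in gated T cell barcodes. Low values of this list were thus not particular to members.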

How the data were processed

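The deposited matrix holds raw UMI counts per gene and per hashtag for 26916 barcodes, made with Cell Ranger 6.0.1 per the file headers. The submitters' processing notes name Cell Ranger, Seurat 4.0.5 and mm10, and the labels' protocols give 10x Genomics 3′ chemistry. Depth limits single sets to 1 UMI per 17260 non-globin UMIs at the lowest, and exact Clopper-Pearson 95% intervals cover counting error only. Members and lists were chosen with earlier results of these data known. Hashtags were called with HTODemux (Seurat 5.3.0, R 4.3.3, quantile 0.99), with cutoffs of 129, 765 and 266 UMIs, and ages were read from the deposited hashtag reference. Doublets were kept, and Scrublet (scanpy 1.11.5) calls, 360 of 11301, were left out only as an alternative. Sums were made with Python 3.11.15, numpy 2.4.6, scipy 1.17.1 and pandas 2.3.3. Thinned shares are expectations over all draws of 1000 UMIs. The fold rule was checked on simulated data.

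Genes were named where they are on an erythroid list with at least 50 CPM (UMIs per 1000000 non-globin UMIs) or past the fold rule, transcription factor and progenitor genes also at 0, with the 20 genes past the rule with the highest smallest log2 difference, the 10 highest genes in members, the markers, and defining markers of other cell types. Of 20 iron and haem transport genes listed, 19 were matched by symbol. A few of these genes are left out of the text. Promoter sequences are from RefSeq. Alternatives were the limits of the rule, the scale, the pseudocount, the T cell RNA, doublets and each hashtag set left out.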

Additional observations from a re-analysis of the deposited data

How the results depend on the processing

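The number of members was 121 with a mitochondrial limit of 10%, 1610 with a minimum of 200 genes, 59 without T cell RNA and 497 with no limits on other cells' RNA. The mean share of members per hashtag set was 0.710% without T cell RNA and 5.25% with 200 genes, and ran from 2.03% to 3.79% with each set left out. Exactly 1 hashtag was called on 15.1% with 200 genes, 57.6% without T cell RNA and 16.1% at 2 times the cutoff. Hbb-bs was 62.48% of globin UMIs without T cell RNA, 62.50% over all hashtag states and 62.3% with 200 genes, and 63.0% to 63.9% with each set left out. The beta to alpha ratio was 2.91, 2.92 and 2.88 under the same 3 settings and 2.98 to 3.05 with each set left out. The Hbb-bs to Hbb-bt ratio was 5.15 without the members at a ratio of 12 or more and 5.32 to 5.62 with each set left out. Genes past the fold rule numbered 20 on the scale of all UMIs, 22 with a pseudocount of 50, 187 with all hashtag states pooled, 13 of these from the T cell list, and 39 to 94 with each set left out, the 94 without the set of 84 weeks. Of the 35 genes, 17 passed under all 15 settings. The share with cell cycle RNA in 1 thinning, 44.1% without T cell RNA, was 58.3% with it, 86.4% unthinned, 58.6% at 10% globin or more, 26.5% with 200 genes and 72.9% when thinned to 1000 non-globin UMIs. One draw of thinning varies by 5.46 points (SD), and the expected share was 44.8%. The share of members at 50% globin or more, 52.2%, was 93.0% with 200 genes and 81.4% without T cell RNA. The share with T cell RNA was 13.8% with 200 genes, 35.2% in 1 thinning to 1000 UMIs (35.7% expected), 57.0% when thinned to 1000 non-globin UMIs, 61.7% at 3 UMIs, and 65.7% to 75.7% with each set left out. The causes of these shifts were not tested. Over 134 named genes and 2010 values, 1514 lay within 1 SD of the reported value, 496 moved further and 0 reversed. The settings with 200 genes (except for the number of members), the limit on the Hbb-bs to Hbb-bt ratio, and all settings for hashtag state, globin ranges and T cell RNA were chosen after seeing the data, as were the expected and non-globin thinnings. No paired analysis was possible because the numbered expression and hashtag libraries are of 1 pool, are not compared groups and are not kept apart in the matrix.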

Other observations

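Mitochondrial and ribosomal protein RNA of the globin-rich barcodes, both of which red cells lose as they mature, differed from that of other barcodes. Among non-globin UMIs, mitochondrial genes had a median share of 39.3% in the barcodes with 200 to 499 genes, 26.4% in members without T cell RNA, 17.0% in members with it and 8.29% in other barcodes. Ribosomal protein genes had median shares of 7.12%, 6.80%, 9.41% and 13.7% in the same order, and 14.9% in gated T cell barcodes. The filter on mitochondrial UMIs is set on all gene UMIs, so that globin-rich barcodes could pass it with a larger mitochondrial share of their other RNA.

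The few hashtag calls on the barcodes with 200 to 499 genes were spread over the animals in another way than those on members. Of 74 such barcodes with exactly 1 hashtag, 22 had that of 81 weeks, 22 that of 84 weeks and 30 that of 88 weeks. Of 169 members with exactly 1 hashtag, 77.5% had that of 84 weeks, as did 77.1% of gated T cell barcodes and 37.1% of smooth muscle barcodes. The difference between these splits was not tested.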
